A study of Rattus norvegicus with 4 samples.

Results

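The imprinted miR-379/miR-410 cluster is a run of miRNA genes in the Dlk1-Dio3 domain of rat chromosome 6. Its mature miRNAs were followed in chondrocytes of the resting zone and the growth zone and in the matrix vesicles (MVs) that these cells deposit. The members were taken by name from the deposited table of miRNA counts. Any mature product of a gene number known to lie in the cluster was included, whichever arm of the hairpin it came from. This gave 67 of the 740 mature miRNA names, from 35 genes, and each name had 1 locus. One listed number, that of miR-679, had no product in the table. The rule itself used names only.

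Small RNA came from costochondral (rib) cartilage of male Sprague Dawley rats, and the resting zone (RC) and the prehypertrophic and upper hypertrophic growth zone (GC) were cultured apart, with no drug or genetic change in any group. Cells (RC-cells, GC-cells) and vesicles (RC-MVs, GC-MVs) of each zone gave 1 library, 4 in all, from confluent cultures at passage 4 in medium with fetal bovine serum, which the study's methods describe as spun beforehand to remove serum exosomes. Series of 4 values are given as RC cells and MVs, then GC cells and MVs. MVs were spun down from the trypsin digest of the cell layer, so the preparation holds what sediments with them. Since no group had a second library, differences have no replicate check and no p-value, and every interval below covers counting error only, at the 95% level.

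The genes of this domain are imprinted: the miRNAs are transcribed from the maternally inherited chromosome as long non-coding RNAs that are cut into many hairpins. Each hairpin can give a mature miRNA from its 5p arm and another from its 3p arm, and a miRNA recognises its target mRNAs mainly through the seed, bases 2 to 8 from its 5′ end. The cluster is known for high expression in brain and in embryonic and mesenchymal tissue and is best studied in neurons, where miR-134-5p regulates dendritic spines. MVs are small membrane-bound particles of the cartilage matrix, known as early sites of mineral formation.

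Mature sequences of all 67 members were found in RefSeq (assembly GRCr8). They were 17 to 25 bases long, and read shares were not divided by length. The sequences on which the results turn are printed 5′ to 3′ with the seed in capitals. The first set held large shares of cluster reads in MVs or the highest MV-to-cell ratios in RC among members with at least 10 reads on both sides. miR-379-5p, also among the most abundant members in MVs, is printed in the second set.
miR-134-5p: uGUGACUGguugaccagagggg
miR-541-5p: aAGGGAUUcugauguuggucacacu
miR-381-3p: uAUACAAGggcaagcucu
miR-382-5p: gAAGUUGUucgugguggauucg
miR-485-5p: aGAGGCUGgccgugaugaauuc
miR-666-5p: aGCGGGCAcggcugugagag
miR-376a-3p: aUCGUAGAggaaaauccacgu

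The second set led the cluster in cells or had the lowest MV-to-cell ratios in RC among members with at least 10 reads on both sides. It includes the 3p partner of miR-485-5p.
miR-379-5p: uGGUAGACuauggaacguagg
miR-379-3p: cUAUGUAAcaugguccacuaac
miR-411-5p: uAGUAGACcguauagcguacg
miR-411-3p: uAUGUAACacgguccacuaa
miR-369-3p: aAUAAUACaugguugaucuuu
miR-485-3p: cAUACACGgcucuccucucuuc

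The third set shares a seed or is nearly identical in sequence, which bears on how far its counts can be trusted.
miR-300-3p: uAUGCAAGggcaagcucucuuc
miR-539-3p: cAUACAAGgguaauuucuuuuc
miR-299a-3p: uAUGUGGGacgguaaaccgcu
miR-299b-3p: uAUGUGGGacgguaaac
miR-299a-5p: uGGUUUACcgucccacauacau
miR-299b-5p: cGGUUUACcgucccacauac
miR-410-5p: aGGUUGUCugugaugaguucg
miR-494-5p: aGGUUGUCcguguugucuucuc
miR-496-5p: aGGUUGUCcaugguguguuc

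The mature products spanned 36369 bases, chr6:134543460-134579828 of GRCr8, from miR-379-5p to miR-410-3p. There, 33 of the genes lie on the plus strand and 2, Mir299b and the gene of miR-409b (Mir3581), on the minus strand opposite Mir299 and Mir409. RefSeq places 16 of the genes inside the lncRNA LOC102555254 and the other 19 inside LOC120103623. The authors' counts were made on another build, Rnor_6.0, and carry no positions, so coordinates here locate the RefSeq sequences only. As examples, miR-134-5p lies at chr6:134570320-134570341, miR-379-5p at chr6:134543460-134543480 and miR-411-3p at chr6:134544639-134544658, all on the plus strand and all within lncRNA genes.

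In RC the libraries held 6517329 miRNA reads from cells and 1108821 from MVs, and in GC 7414467 and 982543. The cell libraries thus held 5.88 times (RC) and 7.55 times (GC) as many miRNA reads as those of their MVs, and total reads were not analysed here. The cartilage miRNAs miR-140, miR-455 and miR-675 summed to between 0.526% and 1.00% of miRNA reads, led by miR-140-3p, without which the list summed to 0.143% in cells and 0.0488% in MVs of RC and 0.131% and 0.0470% in GC. miR-675-5p had no reads in any library and miR-675-3p 1 read in GC-cells alone. Of 4 neural miRNAs found in the table, miR-124-3p, miR-137-3p and miR-153-3p had no reads in the 4 libraries and miR-219a-5p had between 2 and 42. The summed markers of blood, skeletal muscle and liver were higher in both MV libraries than in cells. The 7 blood miRNAs found made up 0.00126% in cells and 0.0887% in MVs of RC and 0.00123% and 0.190% in GC, and the 3 liver miRNAs 0.0284% and 0.418% in RC and 0.0393% and 1.18% in GC. The liver sum in MVs was nearly all miR-122-5p, without which it was 0.0279% in cells and 0.0171% in MVs of RC and 0.0388% and 0.0374% in GC. The 4 muscle miRNAs made up 0.000368% and 0.00171% in RC and 0.000715% and 0.00733% in GC. These muscle sums rest on few reads, 24 and 19 in RC and 53 and 72 in GC. Of the 4, miR-1-3p went the other way in RC, with 6 reads in cells and 0 in MVs. The part of the blood, muscle and liver miRNAs in the MV-to-cell ratios below was not tested.

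Reads of 64 members were found in at least 1 library, of 58 in all 4, and at least 10 reads in all 4 for 37. No library held a read of miR-758-5p, miR-544-5p or miR-409b, which allows each a share of up to 4.60e-05% in RC-cells and 0.000305% in GC-MVs at a limit of 3 reads. Detected members numbered 64 and 60 in cells and MVs of RC and 63 and 60 in those of GC. Members with at least 10 reads numbered 59, 47, 56 and 38 in the same order. The MV libraries thus missed few members outright but counted fewer of them well.

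The cluster as a whole took a larger share of the miRNA reads in MVs than in cells, and in RC than in GC. Its 257163 reads in RC-cells made 3.95% of miRNA reads (Wilson interval 3.93% to 3.96%) and its 97089 reads in RC-MVs made 8.76% (8.70% to 8.81%). In GC-cells 171130 made 2.31% (2.30% to 2.32%) and in GC-MVs 38690 reads made 3.94% (3.90% to 3.98%). The summed share of MVs was 2.22 times that of cells in RC (2.20 to 2.24) and 1.71 times in GC (1.69 to 1.73). The summed blood and muscle markers and miR-122-5p lay higher in MVs as well.

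**Figure D1:**
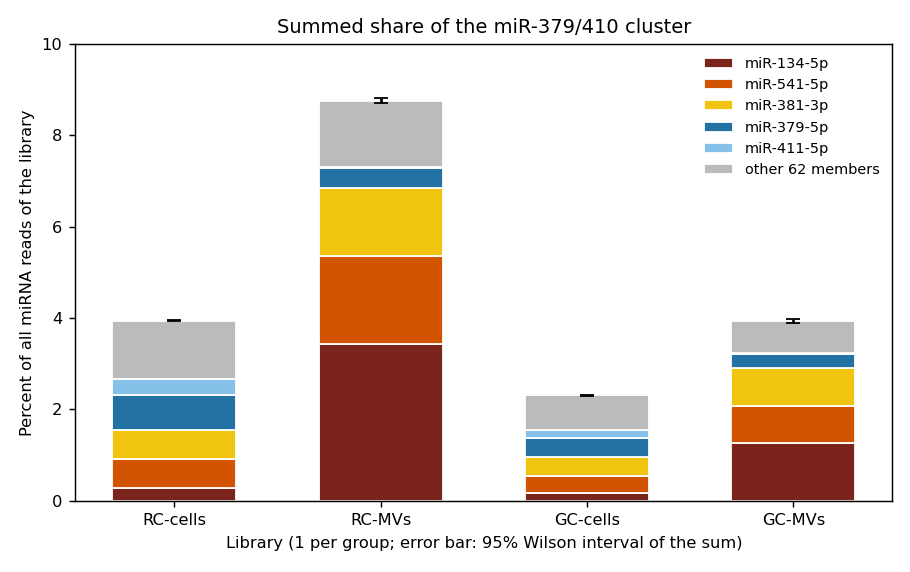
Summed share of the 67 cluster members in each of the 4 libraries, as percent of all miRNA reads of the library (bars from 0; the error bar is the 95% Wilson interval of the sum, counting error only). The 5 members with separate colours show that miR-134-5p fills most of the difference between MVs and cells, whereas miR-411-5p is hardly visible in MVs.

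A few members made up these sums, and the leader was another one in MVs than in cells. The 5 most abundant members were miR-379-5p, miR-381-3p, miR-541-5p, miR-411-5p and miR-134-5p in cells of both zones, and in MVs miR-382-5p took the place of miR-411-5p. Together they held 67.5% of cluster reads for RC-cells and 67.0% for GC-cells, against 87.7% in RC-MVs and 86.1% in GC-MVs. In cells the leading member was miR-379-5p, the first gene of the cluster, with 19.4% of cluster reads in RC and 18.02% in GC. In MVs it was miR-134-5p, with 39.2% and 32.4%. Among all 740 names miR-379-5p ranked 17 in RC-cells and 27 in GC-cells, and miR-134-5p ranked 6 in RC-MVs and 8 in GC-MVs.

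Without miR-134-5p, a choice made after its values were seen, the cluster held 3.66% and 5.32% of miRNA reads in cells and MVs of RC and 2.15% and 2.66% in those of GC. The ratio of MVs to cells fell from 2.22 to 1.46 in RC and from 1.71 to 1.24 in GC. One member therefore carried a large part of the difference in the sum.

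The first comparison asked which members were richer or poorer in RC-MVs than in the RC-cells that made them. Of the 60 members with a read in both libraries, 14 had a share in RC-MVs that was higher by 2-fold or more, 24 had one lower by as much, and 22 lay between. Over all 414 miRNAs so tested, 33.6% were higher and 30.4% lower. Among the members this came to 23.3% higher and 40% lower, and 37 of the 60 ratios were below 1 although the sum was higher in MVs. Of the 414 ratios of all miRNAs, 198 were below 1. The median log2 ratio of the members was -0.40 and that of all other miRNAs 0.16.

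The members were spread widely around that median. Their log2 ratios ran from -5.48 for miR-411-3p to 3.57 for miR-134-5p, with an SD over members of 2.13 and an interquartile range of 3.08. For the 354 other miRNAs the SD was 2.31 and the interquartile range 2.83. The spread among products of neighbouring genes was thus close in size to that among the other miRNAs, a comparison that was not tested. A change of library scaling shifts all members alike and leaves these SDs as they are.

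**Figure D2:**
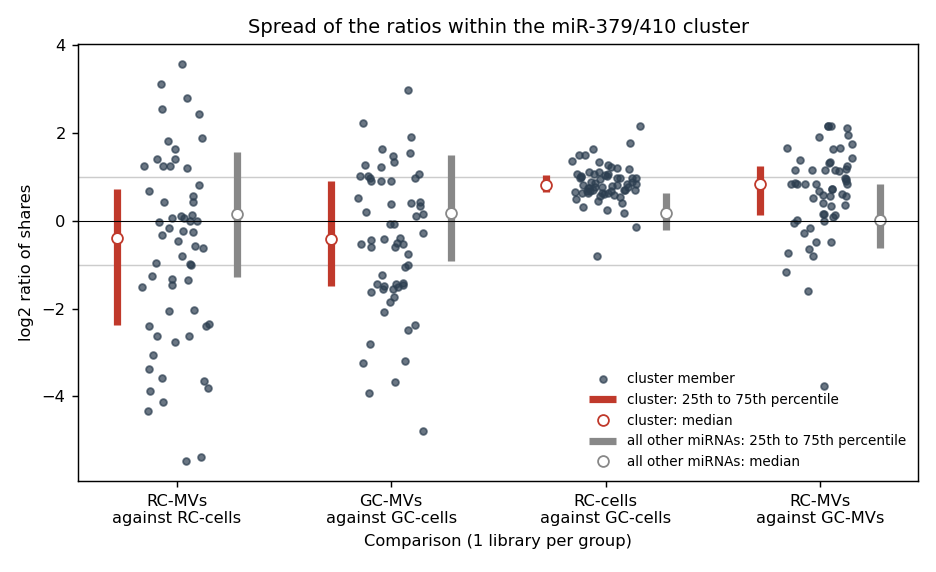
Log2 ratio of shares for each cluster member (points) in the 4 comparisons, with the 25th to 75th percentile and median of the cluster (red) and of all other miRNAs (grey). Grey lines mark 2-fold. Members scatter over a wide range in both MV-to-cell comparisons (SD 2.13 and 1.62) and lie close together between the zones in cells (SD 0.43).

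Among members higher in RC-MVs, miR-134-5p, the regulator of dendritic spines, had 18795 reads (0.288%) and 38061 reads (3.43%) in cells and MVs of RC, and 11924 (0.161%) and 12518 (1.27%) in those of GC. Both MV values lay above both cell values, and its ratio was 11.9 in RC (11.7 to 12.1) and 7.92 in GC (7.73 to 8.12). It had the highest ratio of all members in both zones.

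The other large shares in MVs were those of miR-541-5p and miR-381-3p. For miR-541-5p they came to 0.621% and 1.93% in cells and MVs of RC and 0.388% and 0.807% in those of GC. Its MV-to-cell ratio was 3.10 in RC (3.05 to 3.15) and 2.08 in GC (2.03 to 2.13). For miR-381-3p the shares were 0.631%, 1.496%, 0.409% and 0.833% in the same order, with ratios of 2.37 (2.33 to 2.42) and 2.04 (1.99 to 2.09). These 3 members supplied most cluster reads in both MV libraries, but in GC both miR-541-5p and miR-381-3p were close to the 2-fold line and fell below it with TMM factors (1.78 and 1.74) and with DESeq2 factors (1.88 and 1.84).

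Of the less abundant members, miR-382-5p held 0.108% and 0.3823% in cells and MVs of RC and 0.0546% and 0.168% in those of GC, ratios of 3.54 (3.41 to 3.68) and 3.08 (2.91 to 3.26). For miR-485-5p there were 955, 879, 617 and 208 reads in the same order, so its ratio was 5.41 in RC (4.93 to 5.93) and 2.54 in GC (2.16 to 2.98). The rodent miRNA miR-666-5p had 85, 126, 47 and 29 reads and ratios of 8.71 (6.57 to 11.6) and 4.66 (2.83 to 7.55). All of these lay above 2-fold in both zones with the whole interval.

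miR-376a-3p comes from a family whose precursors are known targets of adenosine-to-inosine RNA editing. It had 55 and 65 reads in cells and MVs of RC and 50 and 13 in those of GC. Its ratio was 6.95 in RC (4.78 to 10.1) and 1.96 in GC (0.978 to 3.67), so in GC neither a ratio of 1 nor one of 3 lies outside its counting error. In RC the study's PCR array ran the other way, listing this miRNA as lower in MVs than in cells. For miR-487b-3p, with shares of 0.0151%, 0.0345%, 0.00925% and 0.0272%, the ratios were 2.28 (2.02 to 2.57) and 2.94 (2.54 to 3.39), above 2-fold in both zones.

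Among members with at least 10 reads on both sides, the lowest in MVs of both zones were those of Mir411, the gene next to Mir379. Reads of miR-411-5p numbered 23291 (0.357%) and 226 (0.0204%) in cells and MVs of RC, and 12759 (0.172%) and 242 (0.0246%) in those of GC. Its ratio was 0.0570 in RC (0.0498 to 0.0650) and 0.143 in GC (0.125 to 0.163), that is, 17.5-fold and 6.99-fold lower. Ranked 32 of all names in RC-cells, it ranked 114 in RC-MVs.

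For miR-411-3p, 3412 reads in cells stood against 13 in MVs of RC, and 1923 against 20 in GC. The ratio was 0.0224 (0.0119 to 0.0384) in RC and 0.0785 (0.0478 to 0.122) in GC. Both arms were thus more than 4-fold lower in MVs of both zones over the whole interval.

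Both arms of Mir369 were low as well. In RC miR-369-3p had 822 reads in cells and 10 in MVs, a ratio of 0.0715 (0.0342 to 0.132), and in GC 478 and 27, a ratio of 0.426 (0.278 to 0.628). miR-369-5p had 921 and 13 reads in RC and 499 and 7 in GC, ratios of 0.0830 and 0.106. The low member at the start of the cluster was miR-379-3p, with 1103 and 15 reads in RC and 626 and 9 in GC, ratios of 0.0799 (0.0446 to 0.132) and 0.109 (0.0494 to 0.207). Its interval stayed below 2-fold in both zones although the MV counts were small.

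The most abundant member of the cells, miR-379-5p, lay between. It had 0.767% and 0.441% in cells and MVs of RC and 0.416% and 0.307% in those of GC, with ratios of 0.575 (0.559 to 0.593) and 0.739 (0.711 to 0.767). For miR-495 the ratios were 0.362 (0.334 to 0.392) and 0.339 (0.305 to 0.376), and for miR-494-3p 0.162 (0.138 to 0.189) and 0.357 (0.297 to 0.426). The less abundant miR-543-3p, with 1483, 106, 1152 and 36 reads, had ratios of 0.420 (0.342 to 0.512) and 0.236 (0.164 to 0.328). Thus the members ranked near the top in cells included both highly and poorly represented ones in MVs.

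In the growth zone the same question gave a similar picture. Of the 60 members with a read in both GC-MVs and GC-cells, 12 were higher by 2-fold or more in GC-MVs, 23 lower by as much and 25 between. Over all 417 miRNAs so tested 32.1% were higher and 25.2% lower, against 20% and 38.3% of the members. The median log2 ratio was -0.42 for members and 0.19 for other miRNAs, and the range ran from -4.79 (miR-299b-5p, 1 read in GC-MVs) to 2.99. The SD was 1.62 over members and 2.09 over other miRNAs.

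The balance of calls in GC moved with the scaling. Of all calls 34.3% were higher as reported, and 44.7% (17 higher, 21 lower) when the 3 dominant miRNAs, miR-143-3p, miR-22-3p and miR-21-5p, were left out of the totals. With edgeR's TMM factors 25.8% were higher (8 and 23). The shares over all miRNAs were counted only without such a change.

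The RC and GC libraries share no sample, so their ratios can be set side by side. Across the 58 members read in each library, the RC and GC log2 ratios had a Pearson r of 0.85 and a Spearman rho of 0.85. This is a description over members of the same libraries, sharing depth and preparation. There were 8 members at least 2-fold higher in MVs of both zones and 19 lower in both, and none was higher in 1 zone and lower in the other. Of 326 other miRNAs 89 were higher in both, 62 lower in both and 2 opposite. For these other miRNAs r was 0.89, close to that of the members.

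**Figure D3:**
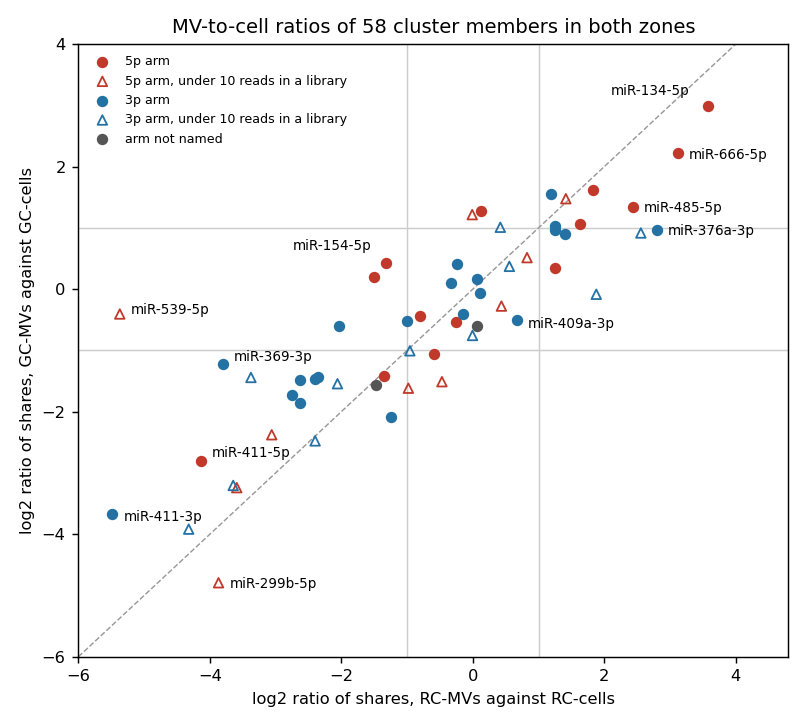
Log2 MV-to-cell ratio of 58 members in the growth zone (vertical) against the resting zone (horizontal), 5p arms in red, 3p arms in blue, open triangles for members under 10 reads in a library, grey lines at 2-fold and a dashed line of equality. Most members lie near the line, from miR-411-3p at the lower left to miR-134-5p at the upper right. miR-539-5p, with 1 read in RC-MVs, lies far from it.

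Some members fell on opposite sides of 1 in the 2 zones. For miR-409a-3p, with 9170, 2493, 7021 and 653 reads, the ratio was 1.60 in RC (1.53 to 1.67) and 0.702 in GC (0.647 to 0.761). For miR-154-5p, with 868, 59, 460 and 82 reads, it was 0.400 in RC (0.301 to 0.520) and 1.35 in GC (1.05 to 1.71). In both cases neither counting interval reached 1, and the direction held under each of the 3 other scalings. With TMM or DESeq2 factors, however, the interval of miR-154-5p in GC took in 1.

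The arms of a precursor offer a comparison that no scaling can change, since both are cut from the same hairpin and read in the same library. Of 24 precursors with reads of both arms in all libraries, the MV-to-cell ratios of the arms differed by at least 2-fold in 19 in RC and in 17 in GC. Among 94 pairs of arms outside the cluster, matched by name, 72.3% differed as much in RC and 57.4% in GC, so such differences were common in these libraries. The 5p arm had the higher ratio in 14 of the 24 cluster precursors in RC and in 16 in GC, beside 46.8% and 39.4% of the other pairs. In 20 of the 24 the same arm was ahead in both zones, a count that was not made for the other pairs. With at least 10 reads of both arms in each library, 8 precursors remained, of which 7 differed by at least 2-fold in RC and 2 in GC, beside 72.2% and 55.6% of 54 other pairs. Members of 1 hairpin could thus lie on opposite sides of the cluster's distribution.

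The clearest case was Mir485. Its 5p arm made up 44.3% of its total in RC-cells (42.3% to 46.4%) and 43.8% in GC-cells (41.3% to 46.4%). In RC-MVs it made up 96.4% (94.96% to 97.4%) and in GC-MVs 87.8% (83.0% to 91.3%). Nearly equal amounts of both arms in the cells of either zone thus stood against a large excess of miR-485-5p in both MV libraries. In RC the 3p arm, miR-485-3p, went from 1199 reads in cells to 33 in MVs, a ratio of 0.162 (0.111 to 0.228), while the 5p arm had one of 5.41.

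Mir382 behaved likewise, with 73.5% (72.6% to 74.4%) and 95.2% (94.5% to 95.8%) of its reads from the 5p arm in cells and MVs of RC, and 71.5% (70.3% to 72.6%) and 91.7% (90.4% to 92.9%) in those of GC. For Mir409 the order was the reverse. Its 5p arm made up 17.5% in cells and 4.92% in MVs of RC, and 15.3% and 8.80% in GC. None of these cell and MV intervals overlapped.

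For Mir380 the 5p arm went from 49.4% to 81.5% in RC (interval in MVs 72.4% to 88.1%), whereas in GC the intervals of 52.5% in cells and 63.8% in MVs overlapped. Mir411 was 87.2% 5p in cells and 94.6% in MVs of RC, and 86.9% and 92.4% in GC, so that both of its arms were depleted in MVs but not equally. Mir667 went from 32.9% to 52.0% in RC, and from 40.5% to 47.4% with overlapping intervals in GC, and Mir376b from 31.3% to 16.9% and from 33.4% to 34.9%. Mir329 stayed at 53.9% and 53.5% in RC but went from 57.2% to 41.1% in GC. For Mir380, Mir667, Mir376b and Mir329 the shift was thus beyond counting error in 1 zone, and the difference between zones was not tested.

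**Figure D4:**
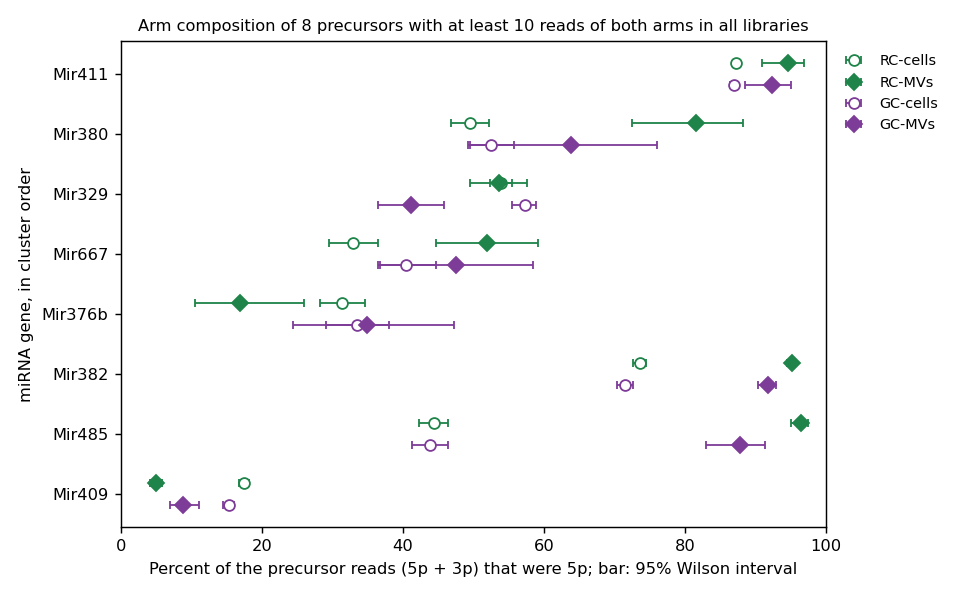
Percent of each precursor's reads that came from its 5p arm, for the 8 precursors with at least 10 reads of both arms in all 4 libraries (open circles cells, filled diamonds MVs, green RC, purple GC; bars are 95% Wilson intervals of counting error). The 5p arm of Mir485 and Mir382 is far to the right in MVs of both zones, and the 2 cell libraries lie close together for most precursors.

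Among precursors with fewer reads of one arm, Mir376a went from 84.1% 5p in RC-cells to 27.8% in RC-MVs (19.6% to 37.8%) and from 76.4% to 35.0% in GC (18.1% to 56.7% in MVs). Mir410 went from 8.47% to 56.7% in RC (44.1% to 68.4% in MVs) and from 3.64% to 22.6% in GC (11.4% to 39.8%). Mir299 went from 5.16% to 0.245% and from 4.67% to 0.501%. The major arm of Mir376a in cells was thus the minor one in RC-MVs, whereas for Mir376a in GC-MVs and Mir410 in RC-MVs the interval took in equal arms.

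Over all members, 7 of 26 products of 5p arms were at least 2-fold higher in RC-MVs and 8 lower, against 7 and 15 of 32 products of 3p arms. In GC the counts were 9 and 8 for 5p, and 3 and 14 for 3p. Outside the cluster 31.0% of 5p products were higher and 33.5% lower in RC-MVs, and 37.6% and 27.4% of 3p products. In GC these shares were 28.9% and 27.7% for 5p, and 37.7% and 19.5% for 3p. The median log2 ratio in GC was 0.27 for 5p arms and -0.56 for 3p arms, and in RC -0.36 and -0.64. Products of 3p arms were the larger group among the members tested, and the arms were not compared by a test.

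Gene order along the cluster showed little relation to the ratio. Over 60 products the Spearman rho between gene order and log2 MV-to-cell ratio was 0.17 in RC and 0.19 in GC. Within the first lncRNA 4 of 28 products were at least 2-fold higher and 12 lower in RC-MVs, and within the second 10 and 12 of 32. In GC the counts were 4 and 13 of 29, and 8 and 10 of 31. Over all miRNAs 33.6% were higher and 30.4% lower in RC-MVs, and 32.1% and 25.2% in GC-MVs. The share of higher products in the second lncRNA was thus near that of all miRNAs in RC, while that in the first lay below it in both zones. In RC the median log2 ratio was -0.69 in the first lncRNA and -0.08 in the second, and in GC -0.44 and -0.41. The 2 lncRNAs were not compared by a test.

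**Figure D5:**
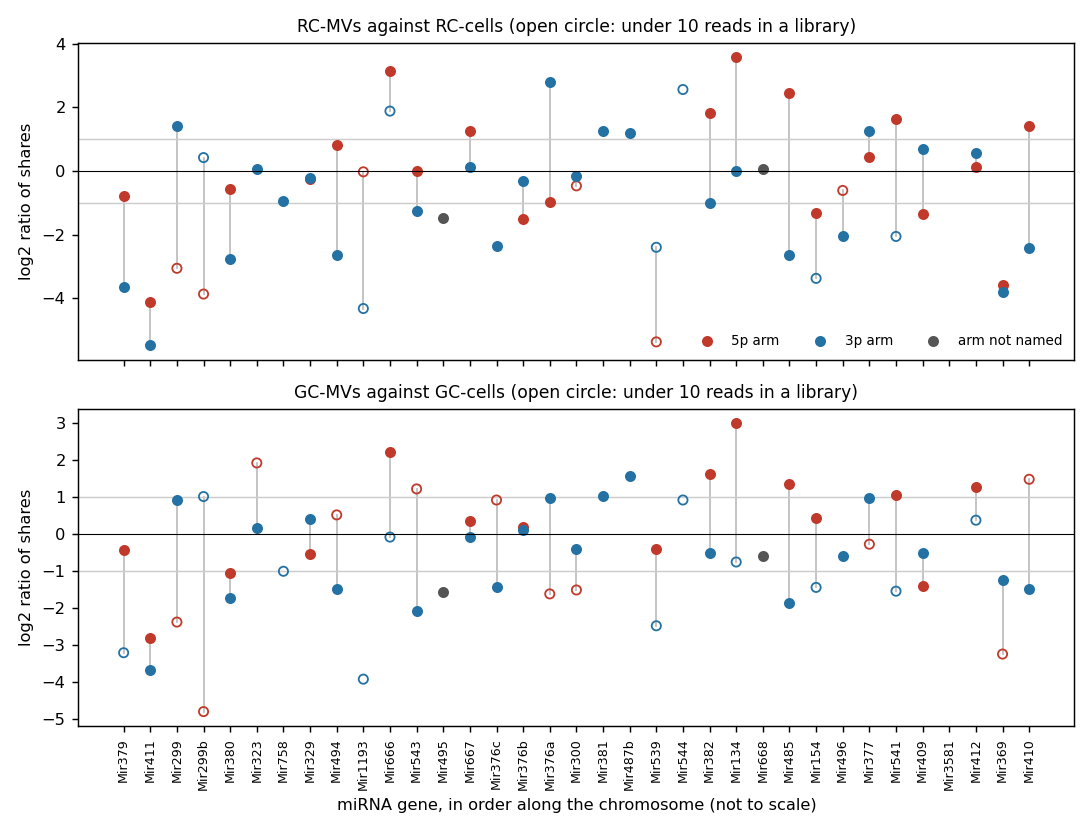
Log2 MV-to-cell ratio of the products of each gene, in gene order along the chromosome (not to scale), for RC (upper panel) and GC (lower panel); 5p arms are red, 3p arms blue, open circles have under 10 reads in a library and a grey line joins the arms of 1 hairpin. High and low products are interspersed along the cluster, and the arms of 1 hairpin often lie as far apart as different genes. The gene of miR-409b (Mir3581) has no point because it had no reads.

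Base content moved with the ratios to some extent. Across 60 members the share of G in the mature sequence had a Pearson r of 0.50 with the log2 MV-to-cell ratio in RC and 0.55 in GC, and the GC content one of 0.44 and 0.30. In the 315 and 316 other miRNAs with a RefSeq sequence the r for G was 0.41 and 0.34, so this was not limited to the cluster. The median share of G was 34.1% in the 14 members higher in RC-MVs and 16.2% in the 24 lower ones. The printed miR-134-5p, ending in a run of G, has 45.5% G and miR-411-3p has 15%. Within precursors whose arms differed in GC content, the arm richer in GC had the higher ratio in 16 of 21 in RC and in 14 of 21 in GC. The same count was not made for pairs of arms outside the cluster, so it cannot be read as a trait of the members.

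These correlations are over members that share a library, and arms of 1 hairpin are partly complementary. Base composition can also affect ligation, amplification and alignment of small RNA, and its part in the ratios was not tested.

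The 67 members carried 61 distinct seeds, of which 5 were shared by members. A further 5 members, miR-329-3p, miR-376c-3p, miR-377-5p, miR-410-3p and miR-1193-3p, each shared a seed with 1 miRNA outside the cluster. The seed AUGUGGG was common to miR-299a-3p and miR-299b-3p, GGUUUAC to miR-299a-5p and miR-299b-5p, and UGGAUAU to miR-376b-5p and miR-376c-5p. AUACAAG was common to miR-381-3p and miR-539-3p, and GGUUGUC to miR-410-5p, miR-494-5p and miR-496-5p.

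Members with a shared seed could have unlike or like ratios. In RC miR-381-3p was 2.37-fold higher in MVs, whereas miR-539-3p, with 4 reads in MVs, had a ratio of 0.190 (0.0509 to 0.498). In the GGUUGUC group miR-410-5p had 75, 34, 19 and 7 reads and a ratio of 2.67 in RC (1.72 to 4.05). In the same order miR-494-5p had 83, 25, 37 and 7 reads and a ratio of 1.77 in RC (1.08 to 2.80). The intervals of these 2 members overlapped. Finally miR-496-5p had 18, 2, 6 and 0, too few to place it.

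Some pairs are so alike that the counting could have split or moved their reads, and their values are uncertain. Positions are counted from 1 at the 5′ end of the first-named member. miR-300-3p and miR-381-3p differ by G4A over the 18 bases compared, miR-299a-5p and miR-299b-5p by U1C, miR-376b-5p and miR-376c-5p by G19U, and miR-379-3p and miR-411-3p by U11C when shifted by 1 base. miR-299a-3p and miR-299b-3p do not differ over 17 bases. The G4A change lies in the seed, so miR-300-3p and miR-381-3p, alike elsewhere over the bases compared, have different seeds.

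The clearest difference within these pairs was that of miR-300-3p and miR-381-3p. miR-300-3p had 16416, 2507, 11443 and 1147 reads, ratios of 0.898 (0.860 to 0.936) and 0.756 (0.711 to 0.804), beside 2.37 and 2.04 for miR-381-3p. miR-299a-3p had 5407, 2440, 4003 and 993 reads and ratios of 2.65 (2.53 to 2.78) and 1.87 (1.75 to 2.01). Its shorter double, miR-299b-3p, had 22, 5, 15 and 4 reads and intervals that took in those ratios. On the other arm, miR-299a-5p had 294, 6, 196 and 5 reads and miR-299b-5p 429, 5, 209 and 1, so both 5p products were low in MVs, with overlapping intervals in both zones.

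Between the zones, cells showed a narrow and one-sided shift. Of 63 members with a read in both RC-cells and GC-cells, 20 had a share at least 2-fold larger in RC-cells, none one as much smaller, and 43 lay between. Over all 474 miRNAs so tested 13.7% were higher and 5.7% lower. The ratio was above 1 for 61 members and for all 56 that had 10 reads or more on both sides. The median log2 ratio of the members was 0.82, against 0.19 for other miRNAs, and the SD was 0.43 against 0.87.

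The number of calls rested on scaling, because the median lay just under 2-fold. With TMM factors 7 members were at least 2-fold higher and 1 lower, with DESeq2 size factors 5 and 1, and with totals without the 3 dominant miRNAs 7 and 1. The shares over all miRNAs were counted with the main totals only, so none stands beside these counts. Higher calls then made up 87.5%, 83.3% and 87.5% of calls instead of 100%. These scalings shifted the log2 ratio of each miRNA by -0.34, -0.36 and -0.32 and left 58, 58 and 59 of 63 members above 1. A larger share in RC-cells of most members held in each case, while its size did not.

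The abundant members moved nearly in step. The ratio of RC-cells to GC-cells was 1.84 for miR-379-5p (1.82 to 1.87), 1.79 for miR-134-5p (1.75 to 1.83), 1.60 for miR-541-5p (1.58 to 1.62) and 1.54 for miR-381-3p (1.52 to 1.57). It was 2.08 for miR-411-5p (2.03 to 2.12) and 1.98 for miR-382-5p (1.90 to 2.05). Members far apart in their MV-to-cell ratio, such as miR-134-5p and miR-411-5p, thus had zone ratios in cells that lay close together.

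The 4 highest ratios among members with at least 10 reads belonged to members with under 100 reads in a library, namely miR-410-5p at 4.49 (2.69 to 7.87; 75 and 19 reads), miR-543-5p at 3.11 (1.96 to 5.07; 71 and 26 reads), miR-494-5p at 2.55 (1.71 to 3.87) and miR-541-3p at 2.53 (1.503 to 4.401; 49 and 22 reads). The lowest were miR-667-5p at 1.18 (0.976 to 1.43), miR-376a-3p at 1.25 (0.838 to 1.87), miR-134-3p at 1.32 (0.889 to 1.95) and miR-329-5p at 1.36 (1.28 to 1.45). The first of these fell below 1 under all 3 other scalings and miR-376a-3p under TMM and DESeq2 factors.

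In MVs the ratios between zones had a wider spread. Marker sums of other tissues also differed between these libraries, with blood at 0.0887% in RC-MVs and 0.190% in GC-MVs, liver at 0.418% and 1.18% and muscle at 0.00171% and 0.00733%, and their part in the ratios was not tested. Of 58 members with a read in both MV libraries, 21 had a share at least 2-fold larger in RC-MVs, 3 one as much smaller and 34 lay between, with 47 ratios above 1. Over all 397 miRNAs so tested 24.7% were higher and 14.6% lower. The median log2 ratio was 0.83 for members and 0.01 for other miRNAs, and the SD 1.04 against 1.16. That SD includes members with few reads in MVs. With at least 10 reads in both libraries it was 0.86 over 37 members, beside 0.32 over 56 members between cells. With totals without the 3 dominant miRNAs, which shifted this comparison by -0.63, 10 members were higher and 8 lower, so that 55.6% rather than 87.5% of calls were higher. The shares over all miRNAs above are from the unshifted totals and cannot be set beside these counts.

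Among members with at least 10 reads, the highest ratio of RC-MVs to GC-MVs was that of miR-376a-3p, 4.43 (2.42 to 8.76), followed by miR-666-5p at 3.85 (2.55 to 5.98), miR-485-5p at 3.75 (3.22 to 4.38) and miR-409a-3p at 3.38 (3.10 to 3.69). For miR-134-5p it was 2.69 (2.64 to 2.75), for miR-541-5p 2.38 (2.32 to 2.45) and for miR-382-5p 2.27 (2.15 to 2.41). For miR-379-5p it was 1.44 (1.37 to 1.503), a direction that was lost with totals without the 3 dominant miRNAs. So several members rich in MVs differed more between the MVs than between the cells. For miR-382-5p the ratio between MVs fell below 2-fold with TMM (1.975) and DESeq2 factors (1.91). Totals without the 3 dominant miRNAs lowered log2 ratios by 0.63 between MVs and by 0.32 between cells. This narrowed the difference and turned it for miR-382-5p.

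The lowest among members with at least 10 reads were miR-369-3p at 0.328 (0.142 to 0.700), miR-411-3p at 0.576 (0.263 to 1.22), miR-376b-5p at 0.604 (0.292 to 1.22) and miR-154-5p at 0.638 (0.448 to 0.902). For miR-411-5p the ratio was 0.828 (0.687 to 0.996). All of these had a higher share in RC-cells than in GC-cells, and for miR-369-3p, miR-154-5p and miR-411-5p neither interval reached 1.

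The zone ratios of cells and of MVs come from different libraries. Across 58 members their Pearson r was -0.14 (Spearman rho -0.27), and across the 37 with at least 10 reads in all libraries -0.48 (-0.47). For other miRNAs r was 0.50 over 326 and 0.58 over 225. The narrow range of the ratios in cells bears on these values, and the difference between members and other miRNAs was not tested.

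Other imprinted miRNAs of the domain served as a comparison, 23 names in all. They include those antisense to Rtl1, such as miR-127-3p, but are not all antisense to it. Their summed share was 3.07% and 10.9% in cells and MVs of RC and 1.89% and 3.62% in those of GC. In RC 10 of 23 (43.5%) were at least 2-fold higher in MVs and 4 (17.4%) lower, and in GC 9 (39.1%) and 3 (13.0%), beside 33.6% and 30.4% of all miRNAs in RC and 32.1% and 25.2% in GC. Their median log2 ratio in cells, RC against GC, was 0.85 with an SD of 0.21, next to 0.82 and 0.43 for the miR-379/miR-410 members. Their median log2 ratio of MVs to cells was 0.63 in RC and 0.25 in GC, next to -0.40 and -0.42 for the miR-379/miR-410 members, whose spread around these medians was far larger than the medians themselves.

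The X-linked cluster of miR-322, miR-503 and neighbours, 10 names from another transcription unit, made up 0.337% and 0.188% in cells and MVs of RC and 0.0982% and 0.0311% in those of GC. Its sum was lower in MVs than in cells in both zones, and all 10 names were at least 2-fold higher in RC-cells than in GC-cells, beside 13.7% of all miRNAs, with a median log2 ratio of 2.03. Its median log2 ratio of MVs to cells was -0.85 in RC and -0.89 in GC. None of this was tested.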

How the data were processed

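The authors deposited raw, whole-number read counts for 774 miRNA loci in 4 libraries. They were made from Illumina HiSeq reads with Bowtie2 against Rnor_6.0 (NCBI annotation release 105) and miARma-Seq, without normalization. Tool versions, trimming and the treatment of reads matching several loci are not given in the sources used here, so near-identical members may have exchanged reads.

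Loci of equal name were added (740 names) and counts were expressed as percent of the miRNA reads of their library, as the study did. Shares have Wilson intervals, and ratios of shares have exact Clopper-Pearson intervals conditional on the sum of both counts. PCR copies of 1 molecule count as separate reads. A difference was called at 2-fold for names with a read in both libraries. Calls and interval coverage were checked on simulated data. Chance tests were not run.

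The members, comparison lists, marker lists and measures were chosen with earlier results of these data known. The members named are the 8 with the highest mean share, the 4 highest and 4 lowest ratios of every comparison among those with 10 reads or more on both sides, both arms of precursors with as many reads of each in all libraries, and members sharing a seed. Named after their values were seen were miR-369-5p, miR-494-3p, miR-495, miR-539-5p, the precursors Mir299, Mir376a and Mir410, and the members without reads. Mature sequences and positions are from RefSeq (GRCr8), found by name for 67 of 67 members.

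Alternatives were TMM factors (edgeR 4.0.16), size factors (DESeq2 1.42.0), totals that leave out miR-143-3p, miR-22-3p and miR-21-5p, a minimum of 10 reads, a pseudocount of 0.5, a whole interval beyond 2-fold, a threshold of 4-fold and unmerged loci. Leaving out miR-134-5p was added after the data were seen. Python 3.11.15 (scipy 1.17.1, pandas 2.3.3) and R 4.3.3 were used. The study's PCR array was not used here beyond its listed direction for miR-376a-3p.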

Additional observations from a re-analysis of the deposited data

Results flagged for a closer look

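For 6 members the same contrast pointed in opposite directions in 2 pairs of libraries, with neither counting interval reaching a ratio of 1. With 1 library per group none of these differences was tested. The number given for each is the first ratio divided by the second.

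In the MV-to-cell contrast, RC against GC, miR-154-5p had ratios of 0.400 and 1.35 (0.297), miR-329-3p 0.849 and 1.32 (0.642), and miR-409a-3p 1.60 and 0.702 (2.28). miR-409a-3p rests on 653 reads or more in each library, and miR-154-5p on 59 or more. With TMM factors the GC intervals of miR-154-5p and miR-329-3p took in 1, and with DESeq2 factors that of miR-154-5p did.

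In the contrast between zones, cells against MVs, miR-154-5p had ratios of 2.15 and 0.638 (3.37), miR-369-3p 1.96 and 0.328 (5.96), miR-411-5p 2.08 and 0.828 (2.51) and miR-539-5p 2.30 and 0.0738 (31.2). The last rests on 1 read in RC-MVs, and its ratio between MVs has an interval from 0.00173 to 0.499. For miR-369-3p the RC-MV library held 10 reads.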

How the results depend on the processing

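Each group had 1 library and the labels give no second replicate number. No paired analysis was run, nor a fit that takes the zones or the fractions as blocks. Leaving miR-143-3p, miR-22-3p and miR-21-5p out of the total raised the share of the cluster to 8.99% and 17.2% in cells and MVs of RC and to 6.56% and 12.0% in those of GC. Leaving miR-134-5p out of the cluster gave 3.66%, 5.32%, 2.15% and 2.66% in the same order. Summed ratios with TMM factors, DESeq2 size factors, the reduced total and without miR-134-5p were 2.08, 2.16, 1.92 and 1.46 for MVs to cells in RC and 1.46, 1.54, 1.83 and 1.24 in GC. Between zones they were 1.93, 1.87, 1.44 and 1.999 for MVs, and 1.36, 1.33 and 1.37 under the first 3 for cells.

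With the whole interval beyond 2-fold, MVs against cells had 9 members higher in RC, and 6 higher and 13 lower in GC, and RC against GC had 3 higher in cells, and 8 higher and 1 lower in MVs. At 4-fold the counts were 5, then 2 and 9, then 1, then 4 and 1. At 10 reads or more, 12 members (31.6%) were lower in GC-MVs than GC-cells, beside 22.2% of all miRNAs. At this limit RC-MVs had 12 members higher (32.4%) and 1 lower (2.7%) than GC-MVs, beside 23.6% and 12.2%. For the other alternatives the shares over all miRNAs were not counted. Between cells TMM, DESeq2 and the reduced total gave 7, 5 and 7 higher and 1 lower each, with medians of 0.48, 0.46 and 0.50 (log2). Between MVs the reduced total gave 10 higher and 8 lower and a median of 0.20. The other 62 of 112 summary values stayed within 1.5 times for counts and within the interval of the main value otherwise.

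No summed ratio, median or 2-fold call of a named member changed direction under another scaling. Members between the 2-fold limits did under at least 1 of 3 scalings, namely 4 of 60 for MVs to cells in RC, 5 of 60 in GC, 3 of 63 between cells and 14 of 58 between MVs. Among the ratios of named members, TMM factors moved 56 beyond their counting interval and left 100 within it, and DESeq2 factors moved 50 and left 106. Depth limits the low members: 3 reads are 0.000305% of the GC-MV library and 4.05e-05% of GC-cells.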
